A study of Homo sapiens with 6 samples.

Results

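CEMIP and the genes that make, cut and bind hyaluronan were followed through the RNA-seq libraries of MTR4 knockdown in PLC/PRF5, an established human hepatocellular carcinoma cell line. The group has 9 genes of the 60675 in the count files, namely CEMIP, CEMIP2, HAS2, HAS3, HYAL1, HYAL2, HYAL3, CD44 and HMMR. The group was selected on the fall of CEMIP between control and MTR4 KD in these same libraries, so the values of CEMIP are given as a description with no test. The other members were listed for their role in hyaluronan synthesis, degradation or reception. Of the 9 genes, 8 passed the filter on low counts and were among the 18075 genes tested, and HAS2 did not pass.

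The comparison set 3 control libraries against 3 libraries labelled MTR4 KD. All came from PLC/PRF5 cells grown in DMEM with fetal bovine serum. Per the labels the control cells are wild type and the other cells have MTR4 knocked down. The paper describes its RNA-seq as a comparison of cells with an inducible short hairpin RNA against MTR4 before and after doxycycline, which switches the hairpin on, while the labels do not name the drug. No library of doxycycline-treated cells with a scramble hairpin was analysed here, so an effect of the drug and of the hairpin itself cannot be told apart from that of MTR4 loss. The labels do not say whether the replicates were separate cultures, and p-values then measure only the spread between these libraries, which may be technical.

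Hyaluronan is a long, unbranched sugar polymer of the extracellular matrix. HAS enzymes in the plasma membrane build it from UDP-glucuronic acid and UDP-N-acetylglucosamine, CEMIP, CEMIP2 and the HYAL hyaluronidases cut it into fragments, and lysosomal enzymes remove the end sugars. Cells sense the polymer through surface receptors such as CD44, and in liver the plasma proteins of the inter-alpha-trypsin inhibitor family, made by hepatocytes, are attached to it. CEMIP is known from other tumours as a secreted or membrane-associated protein linked to invasion.

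The reads counted on genes ranged from 60686786 to 72708682 per library. Levels are given as CPM, the reads of a gene relative to its library's size after TMM scaling. MTR4 itself (MTREX) had 72.2, 87.4 and 74.4 CPM in the control libraries and 44.6, 48.8 and 44.1 CPM in the MTR4 KD libraries. It fell by 0.77 on the log2 scale (edgeR adjusted p = 0.00641), and the groups did not overlap. How many of all tested genes have groups that do not overlap was not counted. Statements on overlap, here and below, therefore only describe the libraries. The libraries also differ in the share of reads with a non-unique alignment. That share was 34.7% to 37.5% in control 1, control 3 and MTR4 KD 3, and 14.8% to 18.2% in the rest. These sets are called here the library class with more and the library class with fewer non-unique reads. Since each class holds both conditions, a second fit with the class as a term and the difference within each class are given beside the fit with condition only. The class was read from the data, and neither the labels nor the paper name it. Summed levels of 10 hepatocellular markers were 22400 to 24120 CPM in control and 22710 to 24310 CPM in MTR4 KD libraries. In the fit with condition only 3 of the 10 were called higher and 1 lower, beside 1.48% higher and 2.12% lower over all genes.

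The region just upstream of CEMIP is shown because CEMIP led to the choice of the group. The sequence is the stretch directly before the annotated start, read 5′ to 3′ from RefSeq GRCh38.p14, at chr15:80779120-80779369 on the plus strand. Capitals mark matches to the motifs searched.
CEMIP: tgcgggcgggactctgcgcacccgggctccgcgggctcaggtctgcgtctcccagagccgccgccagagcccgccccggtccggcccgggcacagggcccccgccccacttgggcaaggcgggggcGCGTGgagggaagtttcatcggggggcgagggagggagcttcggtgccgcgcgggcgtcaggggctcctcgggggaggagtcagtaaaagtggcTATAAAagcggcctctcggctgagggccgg
The stretch is rich in G and C, at 74.4%. The first motif searched, on both strands like the others, was the TATA box TATAAA. The second was TGANTCA, bound by AP-1, and the third the NF-kB consensus. The hypoxia response motif was searched as ACGTG. Its other form, GCGTG, was searched too. None of these motifs contains another. TATAAA starts 30 bases before the annotated start and GCGTG starts 124 bases before it. The other motifs have no match in it. Among 27305 promoters of the same length, TATAAA was found in 11.1%, the AP-1 motif in 6.6%, the NF-kB consensus in 9.57%, and the hypoxia response motif in 18.7% in its first form and 31.9% in its second. A match describes the letters only, and binding was not measured.

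CEMIP (ENSG00000103888, chromosome 15, 80779370 to 80951771 on GRCh38) had 1181, 1228 and 1258 reads in the control libraries and 249, 297 and 307 reads in the MTR4 KD libraries. These are 19.2, 17.0 and 20.9 CPM against 4.06, 4.45 and 5.01 CPM. All MTR4 KD libraries lay below all control libraries, which describes the gap that chose CEMIP. The mean was 19.0 ± 1.96 CPM (SD, n = 3) in control and 4.50 ± 0.477 CPM (SD, n = 3) in MTR4 KD cells, a 4.22-fold lower level. The log2 fold change was -2.08 in the fit with condition only. It was -2.00 in the class with more and -2.00 in the class with fewer non-unique reads. Across 16 other settings it lay between -2.16 and -2.00. Because the libraries are bulk samples, fewer CEMIP-expressing cells and less CEMIP RNA per cell cannot be told apart.

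Among the 12861 tested genes with a mean of at least 100 reads, ranked by the size of their fall, CEMIP stood at position 15. CCL20, a chemokine, was just ahead at -2.09 on the log2 scale, with ENSG00000278047 between them at -2.08. TUBA1A, an alpha-tubulin, followed at -2.05 and DPYSL2 at -1.95. This rank describes how the group was picked and is no result about hyaluronan.

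**Figure D1:**
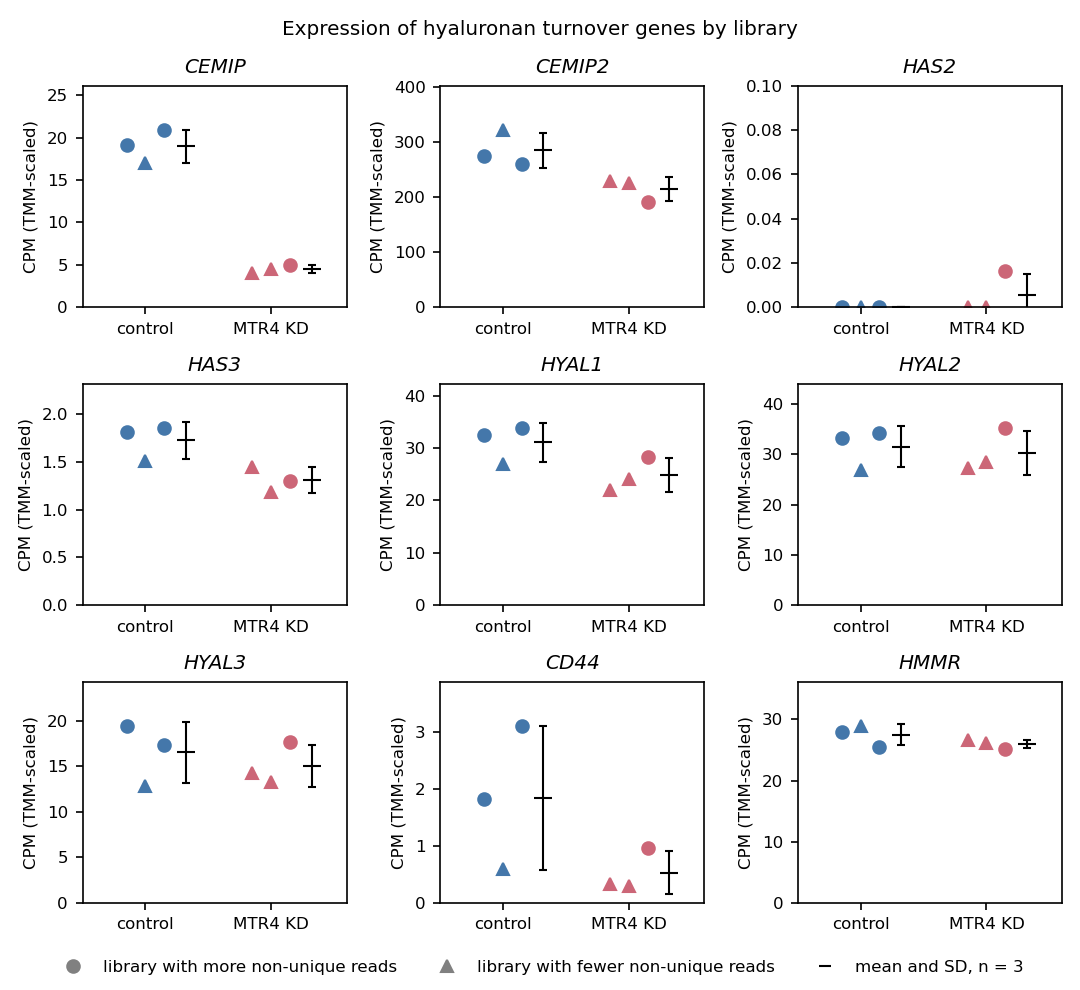
Levels of the 9 genes in CPM in each library, 1 panel per gene with its own axis from 0, with control in blue and MTR4 KD in red. Circles are libraries with more and triangles libraries with fewer non-unique reads, and the black mark is the mean with its SD (n = 3). CEMIP2 and HAS3 do not overlap between the groups, and neither does CEMIP, whose gap chose the group. The share of all genes without overlap was not computed. HYAL1, HYAL2 and HYAL3 are higher in the circles of each group, and the CD44 control libraries spread from 0.594 to 3.10 CPM.

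Genes beside CEMIP on chromosome 15 were taken from the RefSeq annotation. MESD, a chaperone for LDL-receptor family proteins, overlaps the last 5483 bases of the CEMIP region and had 116.5 CPM in control and 119.4 CPM in MTR4 KD cells (log2 fold change 0.036, edgeR adjusted p = 0.827). Whether the counting used strand is not given in the sources used here, so reads in the shared stretch may have been left out or given to either gene. ABHD17C, the next tested gene before CEMIP, had 36.6 CPM in control and 27.4 CPM in MTR4 KD cells. Its log2 fold change was -0.42 (edgeR adjusted p = 0.159), and it fell in the fit with library class, by 0.31 (edgeR adjusted p = 0.00157). FAH, the last enzyme of tyrosine breakdown, had a log2 fold change of -0.047 (edgeR adjusted p = 0.725). ARNT2, at -1.69 (edgeR adjusted p = 0.332), had 236 reads in control 2 and 18 to 33 reads in the other libraries. Of the genes after CEMIP, TLNRD1 had a log2 fold change of -0.41 (edgeR adjusted p = 0.404), STARD5 of -0.046 and TMC3-AS1 of 0.031. No tested neighbour passed the test in the fit with condition only, and ABHD17C and ARNT2 passed it with library class.

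The 5 tested genes whose centred log2 profile over the 6 libraries was nearest to that of CEMIP were SLC1A6, HAL, CCL20, ALDOC and TFF1. The root mean square difference was 0.174 for SLC1A6, a glutamate transporter, and 0.202 for HAL, the enzyme that starts histidine breakdown. It was 0.216 for CCL20, 0.224 for ALDOC, an aldolase of glycolysis, and 0.235 for TFF1, a trefoil peptide. SLC1A6 had 5.63, 4.38 and 5.72 CPM in control and 0.831, 1.09 and 1.501 CPM in MTR4 KD libraries. HAL had 23.8, 24.7 and 26.0 CPM in control and 7.60, 6.65 and 7.94 CPM in MTR4 KD libraries. The likeness rests mostly on the gap between the groups, which was also what chose CEMIP.

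The first question for the remaining members was how many passed the test. In the fit with condition only, 0 of 7 were called by edgeR at an adjusted p under 0.05, and 3 of 7 had an unadjusted p under 0.05. Over all 18075 genes, 1.48% were called higher and 2.12% lower. All 7 had a lower mean in MTR4 KD cells, with a median log2 fold change of -0.32 beside 0.0062 over all tested genes. With library class as a term, CEMIP2, HYAL1 and CD44 fell, where 10.8% of all genes were called lower and 9.43% higher. The median of the 7 was then -0.22 beside 0.0051, and HYAL2 (0.055) and HYAL3 (0.017) were above 0. DESeq2 called 2 of the 7 lower, CEMIP2 and CD44, against 4.26% of all genes. With limma-voom 0 of 7 were called, where 2% of all genes were called lower, and 2 of the 7 had an unadjusted p under 0.05. The share of all genes with an unadjusted p under 0.05 was not computed. Counts at that unadjusted threshold, here and below, therefore have no background to be read against.

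**Figure D2:**
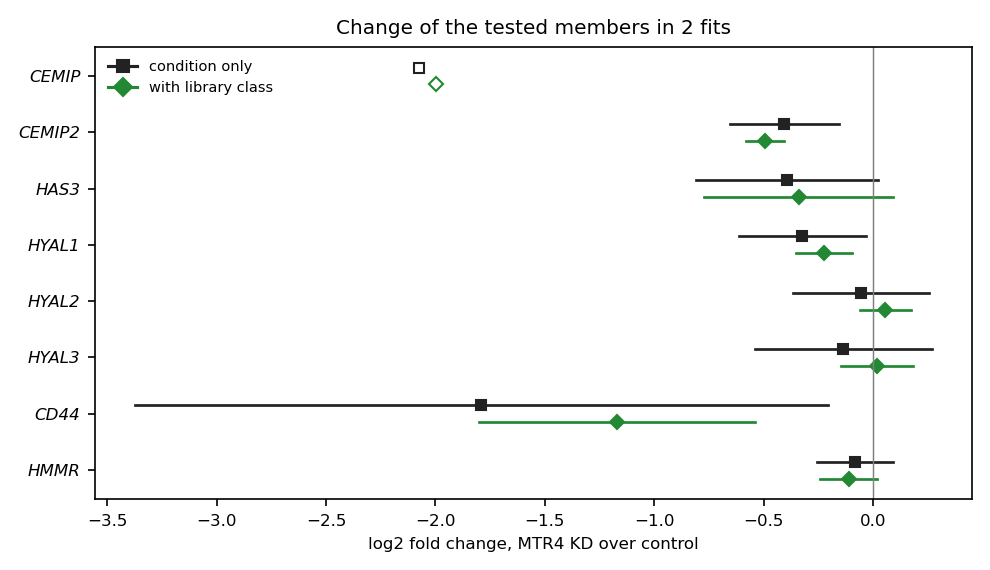
Log2 fold change of MTR4 KD over control for the 8 tested members in the fit with condition only (black squares) and with library class (green diamonds), with 95% confidence intervals as lines. CEMIP is drawn open and without an interval because its fall chose the group. The intervals of CEMIP2, HYAL1 and CD44 lie below 0 in both fits, and those of HAS3, HYAL2, HYAL3 and HMMR include 0 in both.

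The synthases were scarce. HAS3, which builds shorter chains than its relatives, was the synthase with the most reads (ENSG00000103044, chromosome 16, 69083484 to 69118719). It had 112, 109 and 112 reads in control and 89, 79 and 80 reads in MTR4 KD libraries, or 1.82, 1.51 and 1.86 CPM against 1.45, 1.18 and 1.31 CPM. The groups did not overlap, but the highest MTR4 KD library lay just under the lowest control. HAS3 had a log2 fold change of -0.39 with an SE of 0.178 (95% interval -0.81 to 0.023, edgeR adjusted p = 0.291), and of -0.34 with library class (edgeR adjusted p = 0.264). HAS2, the main synthase of many mesenchymal cells (ENSG00000170961, chromosome 8, 121612116 to 121641440), had 0 reads in 5 libraries and 1 read in MTR4 KD 3. A count of 0 allows up to 3 reads, or 0.0414 to 0.0498 CPM depending on the library, for counting error only. HAS1 had 4 reads in each control library and 1, 8 and 0 reads in the MTR4 KD libraries, and was not tested. No difference of HAS1 or HAS2 was detectable at this depth.

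The list of UDP-sugar enzymes held 8 genes, and all were tested. Of these UXS1 uses UDP-glucuronic acid to make UDP-xylose, and the others lead to the precursors of the synthases. None was called in the fit with condition only, where 2 had an unadjusted p under 0.05. With library class, GNPNAT1 was called higher and GFPT2 lower, where 9.43% of all genes were called higher and 10.8% lower. GFPT2, an isoform of the rate-limiting enzyme of the hexosamine pathway, had 4.44, 5.65 and 5.44 CPM in control and 3.11, 3.32 and 4.03 CPM in MTR4 KD libraries. Its log2 fold change was -0.57 (edgeR adjusted p = 0.0989), and -0.56 with library class (edgeR adjusted p = 0.0127). The groups did not overlap. GFPT1, the isoform with far more reads, had 285 ± 12.9 CPM in control and 299.7 ± 21.6 CPM in MTR4 KD cells (SD, n = 3), with a log2 fold change of 0.072 (edgeR adjusted p = 0.652). GNPNAT1, which acetylates glucosamine phosphate, had 88.9 ± 2.53 CPM in control and 100.1 ± 5.17 CPM in MTR4 KD cells (SD, n = 3), with a log2 fold change of 0.17 (edgeR adjusted p = 0.209) and of 0.18 with library class (edgeR adjusted p = 0.0146). UGDH, which makes UDP-glucuronic acid, had 578 and 653 CPM on average, a log2 fold change of 0.18 (edgeR adjusted p = 0.353).

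CEMIP2, also called TMEM2, is a membrane protein reported to cut hyaluronan at the cell surface (ENSG00000135048, chromosome 9, 71683366 to 71769466). It had 273, 321 and 259.9 CPM in the control libraries and 228.5, 225.9 and 190.0 CPM in the MTR4 KD libraries. Every MTR4 KD library was below every control library, and MTR4 KD 3 was the lowest. The mean was 285 ± 32.1 CPM in control and 215 ± 21.5 CPM in MTR4 KD cells (SD, n = 3). The log2 fold change was -0.41 with an SE of 0.106 (95% interval -0.66 to -0.16), which missed the threshold in the fit with condition only (edgeR adjusted p = 0.097). With library class CEMIP2 fell by 0.49 on the log2 scale (SE 0.0407, 95% interval -0.58 to -0.41, edgeR adjusted p = 2.67e-06). The difference was -0.49 in the class with more and -0.50 in the class with fewer non-unique reads. Across 16 alternatives it stayed between -0.49 and -0.32, with an adjusted p under 0.05 in 4 of them.

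The 3 hyaluronidase genes lie next to each other on chromosome 3 in the order HYAL3 (50292832 to 50299405), HYAL1 (50299893 to 50312381) and HYAL2 (50317808 to 50322745). HYAL1 (ENSG00000114378), a lysosomal enzyme that also occurs in plasma, had 32.6, 27.0 and 33.9 CPM in control and 22.1, 24.1 and 28.4 CPM in MTR4 KD libraries. The groups overlapped, since MTR4 KD 3 was above control 2. HYAL1 had a log2 fold change of -0.32 with an SE of 0.124 (edgeR adjusted p = 0.224). It fell in the fit with library class, by 0.22 (SE 0.0591, 95% interval -0.35 to -0.096, edgeR adjusted p = 0.0171), and the difference was -0.23 in the class with more and -0.22 in the class with fewer non-unique reads.

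HYAL2 (ENSG00000068001), which is anchored to the cell surface, had 33.4, 26.9 and 34.4 CPM in control and 27.2, 28.5 and 35.3 CPM in MTR4 KD libraries, so the groups covered the same range. Its log2 fold change was -0.057 (95% interval -0.37 to 0.25, edgeR adjusted p = 0.864), and 0.055 with library class (95% interval -0.062 to 0.17, edgeR adjusted p = 0.531). HYAL3 (ENSG00000186792), whose enzymatic role is less clear, had 19.4, 12.9 and 17.4 CPM in control and 14.2, 13.3 and 17.6 CPM in MTR4 KD libraries. The groups overlapped, and its log2 fold change was -0.14 (95% interval -0.54 to 0.27, edgeR adjusted p = 0.727), or 0.017 with library class (edgeR adjusted p = 0.908). In both groups all 3 hyaluronidase genes were higher in the libraries with more non-unique reads. NAA80, an actin acetyltransferase, lies inside HYAL3 at 50296402 to 50299405, so the reads of this pair may be split or left out by the counting. It had a log2 fold change of -0.37 (edgeR adjusted p = 0.661). The flanking genes IFRD2 and TUSC2 had log2 fold changes of -0.14 and -0.007, with edgeR adjusted p = 0.328 for IFRD2 and 0.984 for TUSC2.

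Within a library the ratio of HYAL1 to HYAL2 reads does not depend on the scaling. There were 0.976, 1.00 and 0.986 HYAL1 reads per HYAL2 read in the control libraries and 0.811, 0.847 and 0.805 in the MTR4 KD libraries. The groups did not overlap, and the mean was 0.988 ± 0.0138 against 0.821 ± 0.0228 (SD, n = 3). The pair was chosen after its values were seen, so no test is given.

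Levels of different genes were compared per kilobase of the canonical transcript. In control cells CEMIP2 had 46.3 CPM per kb, HYAL2 16.8, HYAL1 15.3, HMMR 9.12, HYAL3 8.81, CEMIP 2.58, HAS3 0.412 and CD44 0.338 CPM per kb. HYAL2 and HYAL1 differed by less than their SDs of 2.16 and 1.81 CPM per kb, as did HMMR and HYAL3, with SDs of 0.578 and 1.80. The difference between HAS3 and CD44 was larger than the SD of HAS3, 0.0459, and smaller than that of CD44, 0.231. In MTR4 KD cells the levels were 34.9 CPM per kb for CEMIP2, 16.1 for HYAL2, 12.2 for HYAL1, 8.61 for HMMR, 8.01 for HYAL3, 0.613 for CEMIP, 0.313 for HAS3 and 0.0975 for CD44. With the union of exons as the length, HYAL1 stood at 10.1, HYAL3 at 8.41 and HYAL2 at 7.13 CPM per kb in control cells, so the order among the hyaluronidases depends on the length used.

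Summed over CEMIP, CEMIP2, HYAL1, HYAL2 and HYAL3, the level was 89.8 ± 1.23 CPM per kb in control and 71.9 ± 1.58 CPM per kb in MTR4 KD cells (SD, n = 3). CEMIP made up 2.88% ± 0.292 of that sum in control and 0.851% ± 0.0714 in MTR4 KD cells (SD, n = 3). CEMIP2 held the most in both groups, with 51.6% ± 6.20 and 48.7% ± 5.85 (SD, n = 3), a difference smaller than the spread within each group. HYAL2 had 18.7% ± 2.30 and 22.4% ± 2.68 (SD, n = 3), and HYAL1 17.1% ± 1.93 and 17.0% ± 1.81 (SD, n = 3). Most of the difference in the sum is therefore in CEMIP2 transcripts, while the fold difference was largest for CEMIP.

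**Figure D3:**
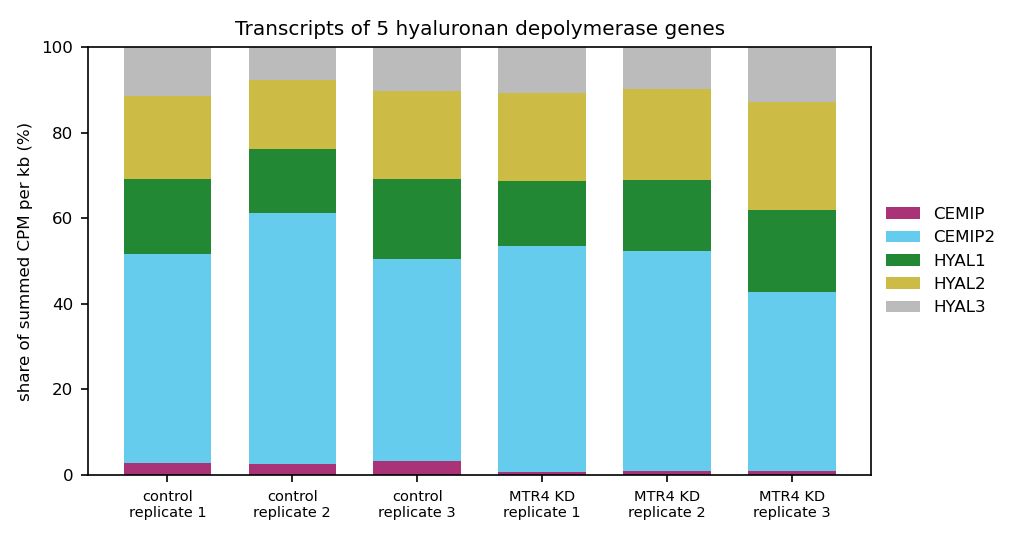
Share of each of 5 hyaluronan-cutting genes in their summed CPM per kb, in percent, with 1 bar per library. CEMIP takes 2.60% to 3.18% in the control libraries and 0.782% to 0.925% in the MTR4 KD libraries, and CEMIP2 is the largest share in all 6.

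CEMIP and CEMIP2 were not lower to the same degree. There were 14.3, 18.9 and 12.5 CEMIP2 reads per CEMIP read in control libraries and 56.3, 50.8 and 37.9 in MTR4 KD libraries. The log2 ratio of CEMIP to CEMIP2 reads was -3.91 ± 0.308 in control and -5.58 ± 0.295 in MTR4 KD cells (SD, n = 3), a difference of -1.67. No test is given, since CEMIP chose the group.

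Of the other degradation genes, the lysosomal enzymes GUSB and HEXA remove sugars from the ends of fragments. GUSB had 161 ± 10.2 CPM in control and 150.2 ± 5.75 CPM in MTR4 KD cells (SD, n = 3), and HEXA had 16.2 ± 0.438 and 17.4 ± 1.95 CPM (SD, n = 3). Their log2 fold changes were -0.097 for GUSB and 0.11 for HEXA, and neither was called in the fit with condition only or with library class. HYAL4 had 4 reads in control 3 and 0 in the other libraries, and SPAM1, the sperm hyaluronidase, had 0 reads in all 6.

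Among the receptors, CD44 (ENSG00000026508, chromosome 11, 35139171 to 35232402) had few reads. It had 112, 43 and 187 reads in the control libraries and 20, 20 and 59 reads in the MTR4 KD libraries, or 1.82, 0.594 and 3.10 CPM against 0.326, 0.2995 and 0.962 CPM. MTR4 KD 3 was above control 2, so the groups overlapped, and the control libraries spread about as widely as the groups were apart. The log2 fold change was -1.79 with an SE of 0.675 (95% interval -3.37 to -0.21, edgeR adjusted p = 0.215). With library class CD44 fell by 1.17 (95% interval -1.80 to -0.54, edgeR adjusted p = 0.0127). The difference was -1.35 within the class with more and -0.93 within the class with fewer non-unique reads. In the fit with condition only the log2 fold change was -1.18 without control 3 (edgeR adjusted p = 0.542), -2.22 without control 2 (edgeR adjusted p = 0.0615) and -2.54 without MTR4 KD 3 (edgeR adjusted p = 0.107). It lay between these values when any other library was left out.

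CD44 is strongly expressed by leukocytes, and reads of other leukocyte genes were not even over the libraries. PTPRC (CD45) had 6, 0 and 109 reads in control and 8, 5 and 33 reads in MTR4 KD libraries. CD3E, a T cell receptor chain, had 1, 0 and 31 reads in control and 0, 0 and 25 reads in MTR4 KD libraries. Control 3 and MTR4 KD 3 thus held most of these reads, and each was also the library with the most CD44 reads in its group. Both also belong to the class with more non-unique reads, which holds no other MTR4 KD library. Control 1, of the same class, had 112 CD44 reads and 6 PTPRC reads. Whether the CD44 reads went with leukocyte reads or with the class was not tested. CD68 and MS4A1 had at most 2 reads per library, and LYZ had 1496 to 2287 reads. The summed level of the 5 leukocyte markers was 28.0 to 32.6 CPM in control and 24.5 to 26.8 CPM in MTR4 KD libraries, nearly all of it LYZ. Without control 3 and MTR4 KD 3, CD44 had a log2 fold change of -1.93 (edgeR adjusted p = 0.227), a comparison of 2 libraries per group added after the data were seen.

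**Figure D4:**
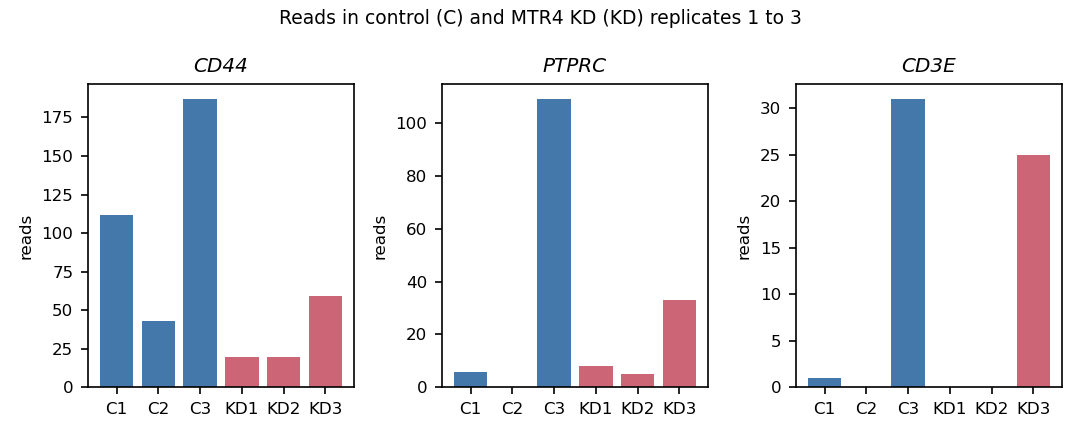
Reads on CD44, PTPRC and CD3E in control replicates 1 to 3 (C1 to C3, blue) and MTR4 KD replicates 1 to 3 (KD1 to KD3, red), each panel with its own axis from 0. PTPRC and CD3E peak in C3 and KD3, at 109 and 33 reads for PTPRC, while CD44 also has 112 reads in C1, where PTPRC has 6.

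HMMR (ENSG00000072571, chromosome 5, 163460632 to 163491941), a hyaluronan receptor that also binds the mitotic spindle, was the receptor with the most reads. It had 28.0, 29.0 and 25.6 CPM in control and 26.6, 26.1 and 25.2 CPM in MTR4 KD libraries, with overlapping groups. The log2 fold change was -0.084 (95% interval -0.26 to 0.091, edgeR adjusted p = 0.603), and -0.11 with library class (95% interval -0.24 to 0.016, edgeR adjusted p = 0.212). HMMR is transcribed mainly in dividing cells, so a list of 20 mitotic and G2/M genes is given beside it. In the fit with condition only none of the 20 was called and 5 had an unadjusted p under 0.05, with a median log2 fold change of -0.096. With library class 10 fell and none rose, beside 10.8% lower and 9.43% higher over all genes, with a median of -0.16. ECT2 and MKI67 were among these, at -0.31 and -0.24 (edgeR adjusted p = 0.00191 and 0.00946), and TOP2A was not, at -0.02 (edgeR adjusted p = 0.787).

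LYVE1, the hyaluronan receptor of lymphatic and liver sinusoidal endothelium, was the receptor that passed the test in both fits. It had 103, 109 and 132 reads in the control libraries and 45, 56 and 50 reads in the MTR4 KD libraries. The groups did not overlap, and LYVE1 fell by 1.16 on the log2 scale with an SE of 0.211 (edgeR adjusted p = 0.0318), or by 1.08 with library class (edgeR adjusted p = 0.00504). Other markers of endothelium with a matched symbol were close to 0. VWF and STAB2, which is also a hyaluronan receptor, had at most 10 reads per library. CDH5 had 5 to 23 reads per library and CLEC4G had 0. PECAM1, also on the list, had no symbol match and was not counted. The summed level of the endothelial markers, LYVE1 included, was 2.00 to 2.45 CPM in control and 0.978 to 1.42 CPM in MTR4 KD libraries. LYVE1 gave most of these reads, which summed to 123, 145 and 148 in control and 60, 83 and 87 in MTR4 KD libraries. CDH5, the other tested marker, had a log2 fold change of 0.66 (edgeR adjusted p = 0.585). Mean levels in control and MTR4 KD cells were 0.0764 and 0.107 CPM for VWF, and 0.128 and 0.0567 CPM for STAB2. The part of endothelial markers in the result was not tested. LAYN, another surface receptor, had 21 to 39 reads per library and a log2 fold change of -0.083 (edgeR adjusted p = 0.926). STAB1, STAB2, TLR2 and TLR4 had too few reads to be tested.

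The proteins that bind hyaluronan in matrix and plasma moved in both directions. Of 16 listed, 9 were tested, 3 rose and 1 fell in the fit with condition only, beside 1.48% higher and 2.12% lower over all genes. ITIH1, a heavy chain that is attached to hyaluronan, rose from 41.2 ± 1.04 to 80.7 ± 5.21 CPM (SD, n = 3), a log2 fold change of 0.97 (edgeR adjusted p = 0.000797). ITIH3, another heavy chain, had 39, 43 and 37 reads in control and 92, 89 and 114 in MTR4 KD libraries, and rose by 1.35 on the log2 scale (edgeR adjusted p = 0.0179). AMBP, the precursor of the light chain bikunin, rose from 2875 ± 59.2 to 3707 ± 166.5 CPM (SD, n = 3), a log2 fold change of 0.37 (edgeR adjusted p = 0.0222).

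The heavy chain ITIH2 went the other way. It fell from 958 ± 19.6 to 790.6 ± 25.3 CPM (SD, n = 3), a log2 fold change of -0.28 (edgeR adjusted p = 0.046). In each of these 4 genes the groups did not overlap, and each was called in the same direction with library class. Among the hepatocellular markers, other plasma proteins also rose in the fit with condition only. These were TTR at 0.88 (edgeR adjusted p = 0.00693), APOA1 at 0.52 (edgeR adjusted p = 0.00921) and ALB at 0.29 (edgeR adjusted p = 0.048) on the log2 scale, while KRT18, a keratin of the list, fell by 0.26 (edgeR adjusted p = 0.0435). SERPINA1, FGB, APOB, AFP, HNF4A and KRT8 were not called, and the part of such a shift in the values of the ITIH genes and AMBP was not tested. BCAN, a hyaluronan-binding proteoglycan best known from brain, had a log2 fold change of -0.87 (edgeR adjusted p = 0.083) and fell with library class, by 0.71 (edgeR adjusted p = 0.00269). ITIH5 had a log2 fold change of -0.24 (edgeR adjusted p = 0.0895) and also fell with library class, by 0.26 (edgeR adjusted p = 0.00157). VCAN, a matrix proteoglycan, had 333 reads in control 2 and 2 to 13 in the other libraries, and the fibroblast gene COL1A2 had 338 reads in control 2 and 2 to 63 elsewhere. Of the other fibroblast markers, COL3A1 was also highest in control 2, with 157 reads there and 54 to 88 elsewhere. COL1A1 had 171 to 371 reads, with 350 in control 2 and 371 in MTR4 KD 3. PDGFRB had 144 to 243 reads and was highest in MTR4 KD 2. DCN had 0 reads in control 2 and at most 14 elsewhere, and LUM had at most 6 per library.

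Genes that anchor, shed or splice CD44 gave 1 gene higher and 1 lower of 8 tested in the fit with condition only, beside 1.48% and 2.12% of all genes. ESRP2, an epithelial splicing regulator that acts on CD44 transcripts, had 77.6, 72.9 and 77.4 CPM in control and 107.6, 111.8 and 107.4 CPM in MTR4 KD libraries. It rose by 0.52 on the log2 scale with an SE of 0.058 (edgeR adjusted p = 0.00509). MSN (moesin), which links CD44 to actin, fell from 284 ± 2.68 to 230.2 ± 9.69 CPM (SD, n = 3), a log2 fold change of -0.30 (edgeR adjusted p = 0.0357). With library class, 1 rose and 4 fell, beside 9.43% and 10.8% of all genes. MMP14, a membrane protease that can shed CD44, and ADAM10, the sheddase of many surface proteins, were among the latter at -0.21 and -0.20 (edgeR adjusted p = 0.0224 and 0.00259). In the fit with condition only MMP14 was at -0.39 (edgeR adjusted p = 0.316). The counts per gene do not show which CD44 isoforms were made.

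Over the 6 lists of hyaluronan genes, CEMIP left out, 54 genes were listed and 37 tested. In the fit with condition only 4 were called higher (10.8%) and 3 lower (8.11%), beside 1.48% and 2.12% of all genes, with a median log2 fold change of -0.084. With library class 5 were called higher (13.5%) and 12 lower (32.4%), beside 9.43% and 10.8% of all genes. The 7 calls of the fit with condition only became 2 when control 1, control 3 or MTR4 KD 1 was left out. They became 1 without MTR4 KD 2, and 1 without both libraries that held most leukocyte reads. The calls left in these settings were all higher and 0 were lower, so LYVE1, ITIH2 and MSN were not called in them.

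**Figure D5:**
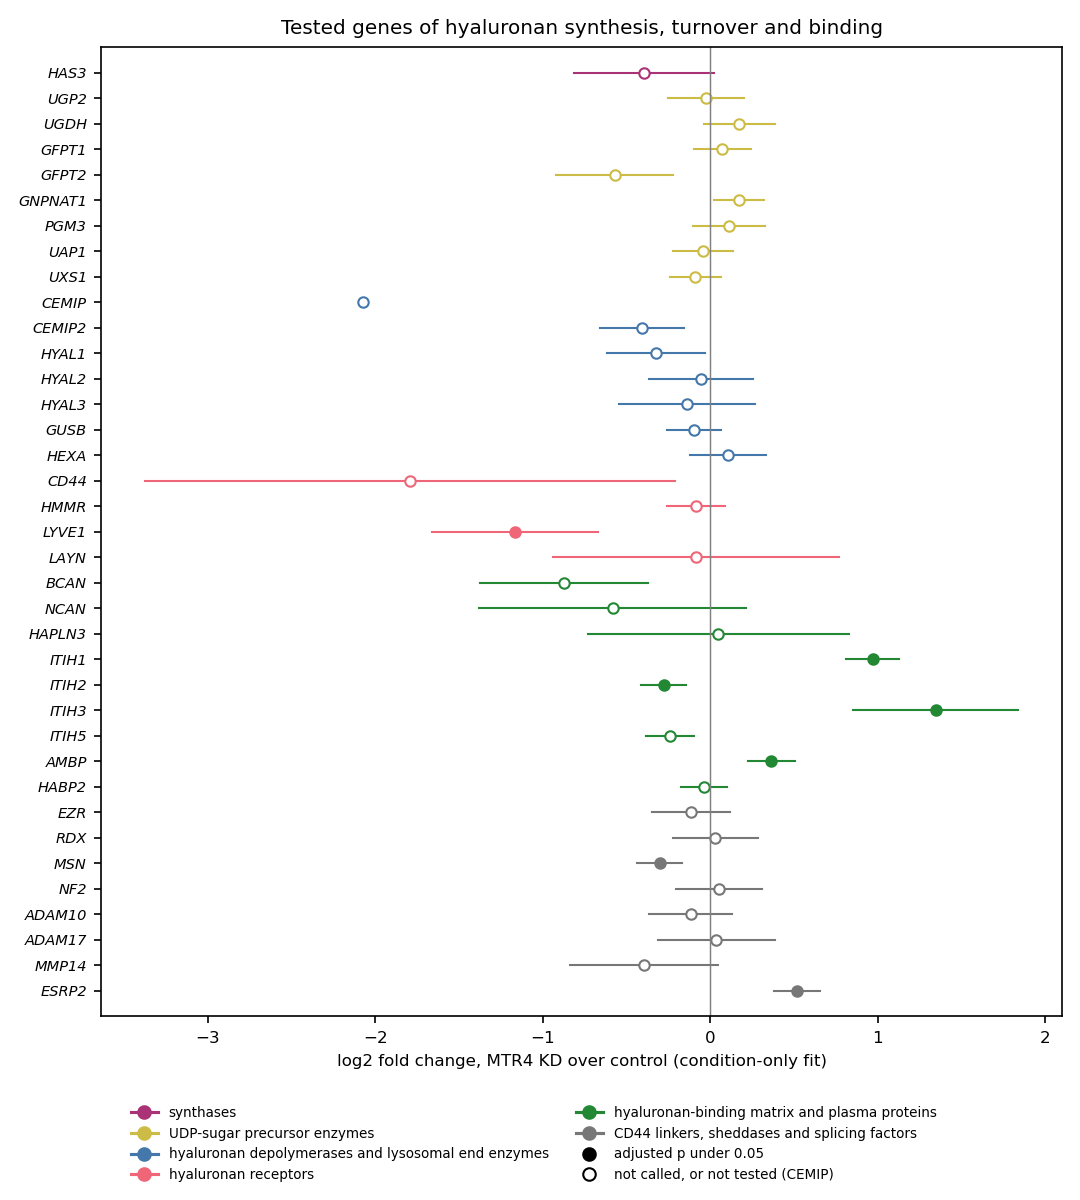
Log2 fold change of MTR4 KD over control in the fit with condition only for tested genes of the 6 hyaluronan lists (1 is not shown), coloured by list, with 95% confidence intervals as lines. Filled points are the 7 genes with an adjusted p under 0.05, and CEMIP is shown at -2.08 without an interval. ITIH1, ITIH3, AMBP and ESRP2 lie to the right of 0, LYVE1, ITIH2 and MSN to the left.

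The last list held 12 subunits of AP-1 and NF-kB, factors known to act on CEMIP in other cells. In the fit with condition only 1 fell and none rose, beside 2.12% lower and 1.48% higher over all genes, and 4 had an unadjusted p under 0.05. NFKB2 fell from 123 ± 12.7 to 89.2 ± 6.45 CPM (SD, n = 3), a log2 fold change of -0.46 (edgeR adjusted p = 0.047). With library class 3 fell and 1 rose, beside 10.8% and 9.43% of all genes. FOS was at -0.71 in the fit with condition only (edgeR adjusted p = 0.123) and fell by 0.56 with library class (edgeR adjusted p = 0.00621), JUNB fell by 0.33 (edgeR adjusted p = 0.00164) and REL rose by 0.24 (edgeR adjusted p = 0.0282) in that fit. RELA was at -0.097 (edgeR adjusted p = 0.78) with condition only. Protein levels and binding of these factors were not measured.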

How the data were processed

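RNA-seq was performed on 3 control and 3 MTR4 KD libraries of PLC/PRF5 cells. The authors deposited the raw read count per Ensembl gene for each library, without normalization. Per the paper's methods and the submitters' processing notes, reads were mapped to GRCh38 with HISAT2 2.1.0, and HTSeq and DESeq2 are named without versions. Rows of reads not assigned to a gene, between 37.7% and 49.3% of all entries, were left out. Symbols and lengths came from GENCODE lifted to GRCh37, which held 56959 of 60675 genes, and positions and sequences from RefSeq GRCh38.p14. All 9 members matched by symbol.

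The analysis used R 4.3.3 with edgeR 4.0.16, limma 3.58.1 and DESeq2 1.42.0, and Python 3.11.15. Genes were kept by filterByExpr (minimum count 10), scaled by TMM and compared by the quasi-likelihood test of edgeR, in which condition was the single term. Benjamini-Hochberg adjustment was over all 18075 tested genes, with calls at an adjusted p under 0.05. The library class was cut at 25% of reads with non-unique alignment. The procedure was tested on simulated data. CPM values and intervals reflect these counts only.

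The members, lists and library class were chosen with earlier results of these data known. Named genes are the members, MTREX, called genes of each list (up to 3 per list and direction), the 5 genes nearest to CEMIP in profile with a mean of at least 100 counts, the 3 nearest tested neighbours of CEMIP on each side and the genes around the HYAL cluster. Other genes were named after their values were seen, or as uncalled list members for context. The values of 1 listed gene are left out. Alternatives were other scalings, filters, tools, thinned counts, the replicate block, the library class and leaving out libraries.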

Additional observations from a re-analysis of the deposited data

How the results depend on the processing

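CEMIP stayed between -2.16 and -2.00 on the log2 scale in 16 alternatives. These values describe the fall that chose the group and do not test it. The number of tested genes called was 650, and became 1363 with DESeq2's Wald test, 3649 with library class, 155 without both libraries with most leukocyte reads, 150 with a fold change over 2 also required, and 137 to 803 when 1 library was left out. The 0 members called became 1 without a filter on low counts, 2 with DESeq2, 2 with the replicate block and 3 with library class. The 7 hyaluronan genes called became 12 with DESeq2, 17 with library class, 1 without the leukocyte pair, 2 with a fold change over 2, and 1 to 6 when 1 library was left out. MTREX was at -0.77 without the leukocyte pair (edgeR adjusted p = 0.0691). The direction turned for HYAL2 with library class (0.055) and when 1 library was left out (-0.18 to 0.018), and for HYAL3 with library class (0.017). None of these passed the test. The causes were not tested.

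Deviations of same-numbered libraries correlated at -0.24, 0.33 and 0.35, the first of these between libraries of different class. Differently numbered libraries of the same class correlated at 0.36 and 0.34. The correlations went with the class, so they do not decide whether the replicate numbers of the labels pair the libraries. A replicate block gave 857 called genes, with CEMIP2 (edgeR adjusted p = 0.0266) and CD44 (edgeR adjusted p = 0.0316) among them. Too few reads were counted on HAS1 and HAS2 for a test, and the length used changes the order of the hyaluronidases.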
